A study of Homo sapiens with 6 samples.

Results

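Intron positions of protein-coding genes were taken from the eIF4B iCLIP data of DoHH-2 and GM01953 cells. iCLIP (individual-nucleotide cross-linking and immunoprecipitation) maps where a protein was cross-linked to RNA by UV light, because reverse transcription stops at the cross-linked nucleotide. A position was kept when it lay inside a GENCODE release 44 gene span of the protein_coding type, on the same strand, and in no annotated exon of any transcript on that strand. By this rule 217116 of 1179243 positions in DoHH-2 and 10493 of 78474 positions in GM01953 were intron positions. They held 248578 and 20346 cDNA counts.

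DoHH-2 is a cell line from diffuse large B-cell lymphoma (DLBCL), and GM01953 is a B-cell line from a disease-free donor used as the control. The sample labels give 4 replicates of DoHH-2 and 2 of GM01953 and name no treatment. Each group is a single cell line, and the lines are not isogenic. The deposited tables pool the replicates of a line, so each position has a single value per line. The spread between replicates is therefore unknown, and the lines cannot be compared by a test. DoHH-2 held 2033156 cDNA counts in all and GM01953 held 167197, and intervals below are 95% intervals that cover counting error only. Of 7 B-cell marker genes, 7 had counts in DoHH-2 (1894 in total) and 6 in GM01953 (652 in total). All 5 T-cell, 4 myeloid and 3 erythroid markers were at 0 counts in both lines, and 4 epithelial markers held 3 counts in DoHH-2 and 1 in GM01953.

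Introns are the parts of a pre-mRNA that the spliceosome removes in the nucleus, and they are far longer in sum than the exons that remain. The 5′ splice site is bound by U1 snRNP, and the 3′ splice site is preceded by a branch point and a pyrimidine-rich tract bound by U2AF. eIF4B is best known as a cytoplasmic RNA-binding protein that stimulates the helicase eIF4A during translation initiation, where its usual substrate is spliced mRNA. Introns can also contain other genes, among them tRNA genes that RNA polymerase III transcribes from their own internal promoter.

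The sequences below, from GRCh38, show the kinds of intron position that held the highest counts. Each is written 5′ to 3′ on the transcribed strand, from 14 nt before to 15 nt after the position, and the capital marks the position. By the iCount convention this is the nucleotide before the start of the cDNA. The first 4 lie inside tRNA genes that GENCODE does not annotate as exons. They are shown as examples from the 40 highest intron positions of both lines. Other tRNA positions were among these too and are not shown. One of them lies in the tyrosine tRNA of AGBL5, with 97 counts in DoHH-2 and 34 in GM01953, away from the anticodon.
ARMH4, lysine tRNA, chr14:58239919-58239948, minus strand: tagagcatgggactCttaatcccagggtcg
FBXO31, methionine tRNA, chr16:87384046-87384075, minus strand: cagcgcgtcagtctCataatctgaaggtcg
AGBL5, alanine tRNA, chr2:27051236-27051265, plus strand: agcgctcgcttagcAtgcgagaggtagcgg
KCTD2, arginine tRNA, chr17:75035131-75035160, plus strand: ataaggcgtctgacTtcggatcagaagatt

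The next position lies before a run of A, and is shown because it was the highest of a gene whose intron counts in GM01953 all lay at such a run.
GTF2F1, intron 3, chr19:6391456-6391485, minus strand: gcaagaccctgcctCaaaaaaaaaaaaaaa

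The next pair are the last base of an intron, with the exon starting directly after the capital, and stand for the peak at the 3′ splice site described below.
RPS24, intron 1, chr10:78035337-78035366, plus strand: tgtttatgttttcaGaacgacaccgtaact
RPS16, intron 1, chr19:39435694-39435723, minus strand: tcttgtatcttacaGaagacagcgacagct

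The last pair are the highest positions of RUBCNL and TERT in DoHH-2, with 20 and 9 counts, and stand for genes whose intron counts were spread over many positions.
RUBCNL, intron 9, chr13:46359324-46359353, minus strand: aaagttggctgtatTttctggcttaggttt
TERT, intron 11, chr5:1262400-1262429, minus strand: tgggaattttcttgTccagattttagtctc

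Introns held nearly the same share of the cDNA counts in both cell lines when every position was summed. The share was 12.2% (Wilson interval 12.2% to 12.3%) in DoHH-2 and 12.2% (12.01% to 12.3%) in GM01953. The likeness depended on this choice, since the share was 3.95% and 14.8% at positions with an FDR below 0.05, and 18.4% and 13.4% with each position counted once. Exon positions inside the same gene spans held 78.0% and 70.9% of the counts. The intron counts were spread more thinly than the exon counts in DoHH-2, where the mean count was 1.14 per intron position and 1.90 per exon position. In GM01953 the means were 1.94 and 2.11. Of the intron positions, 94.1% in DoHH-2 and 62.6% in GM01953 had a single count. A random subset of the DoHH-2 counts, equal in number to those of GM01953, kept 19659 intron positions, of which 97.7% had a single count and 448 had at least 2. GM01953 had 3927 intron positions with at least 2 counts. At the same total count the intron counts of GM01953 lay on fewer and higher positions, while the number of pooled replicates and the duplication of the libraries were not matched. Exon positions did so too, with 97930 in the thinned DoHH-2 counts and 56292 in GM01953. Their means were 1.33 and 2.11 counts, and 90.1% and 59.3% of them had a single count. The difference was thus not particular to introns.

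The authors' FDR, which compares the count around a position with counts permuted within the gene, was below 0.05 at 4.78% of the intron positions in DoHH-2 and at 41.1% in GM01953. Over all positions of the same tables it was below 0.05 at 21.5% in DoHH-2 and 36.6% in GM01953. Intron positions thus passed less often than positions in general in DoHH-2, and their share was close to that of all positions in GM01953.

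The strand of the transcript held most of the signal. Over 1217 Mb of intron without an exon on that strand, the density was 204 counts per Mb in DoHH-2 and 16.7 in GM01953. On the opposite strand of protein-coding genes, over 1269 Mb without an exon or a protein-coding gene, it was 28.5 and 4.18 counts per Mb. The ratio of sense to antisense density was 7.18 (exact interval 7.10 to 7.26) in DoHH-2 and 4.00 (3.88 to 4.13) in GM01953. At positions with an FDR below 0.05 it was 41.7 and 43.1, without the higher value in DoHH-2. This FDR is computed within genes and passed at 1.06% (DoHH-2) and 4.45% (GM01953) of antisense positions. A filter that rarely passes antisense positions raises the ratio, so these filtered values cannot measure strand signal. Counts at positions whose next 31 nt occur once in the genome made up 92.4% of intron counts in DoHH-2 and 88.1% in GM01953. On the antisense strand these shares were 71.3% and 62.0%, and their part in the ratio was not tested.

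Few intron positions were the same in both lines. There were 1348 identical intron positions, which is 12.8% of the GM01953 and 0.621% of the DoHH-2 intron positions. For exon positions the number was 21185, or 37.6% and 2.53%.

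The bases around intron positions were rich in U. The base directly after the position, where the cDNA starts, was U at 58.6% of the intron positions in DoHH-2 and 50.6% in GM01953, against 30.7% of all eligible intron bases. At exon positions it was U at 44.1% in DoHH-2. A run of 5 or more U within 5 nt of the position was found at 14.2% of the intron positions in DoHH-2 and 9.68% in GM01953, and at 3.14% of all eligible intron bases. G was the rarest base after the position, at 7.12% in DoHH-2 and 5.81% in GM01953, against 21.1% of all intron bases. Among all words of 5 nt centred on the position, TTTTT had the highest enrichment over all intron bases in DoHH-2, at 7.25-fold, and ranked 7 in GM01953, at 5.01-fold. UV cross-linking itself favours uridine, and how much of this composition comes from the cross-linking was not tested.

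Runs of A were the other feature of intron positions. A run of 10 or more A within the next 20 nt followed 0.952% of the intron positions in DoHH-2 and 5.39% in GM01953, against 0.275% of all eligible intron bases. Such positions held 1.52% (1.47% to 1.57%) of the intron counts in DoHH-2 and 6.90% (6.56% to 7.26%) in GM01953. At exon positions the shares of counts were 0.0637% and 0.245%. Of the intron positions with at least 10 counts, 40 of 498 in DoHH-2 and 19 of 102 in GM01953 preceded such a run.

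Counts rose towards both ends of the intron. To set this against an even spread, the count of each intron of at least 1000 nt in the Ensembl canonical transcript was shared out over its own eligible bases. The first 100 nt then held 6886 counts against 3728 expected in DoHH-2, a ratio of 1.85 (Poisson interval 1.80 to 1.89). In GM01953 they held 651 counts against 302, a ratio of 2.16 (1.99 to 2.33). The last 100 nt held 6599 against 3680 in DoHH-2, a ratio of 1.79 (1.75 to 1.84), and 574 against 282 in GM01953, a ratio of 2.03 (1.87 to 2.21). All 4 intervals lay above 1. The size depended on the expectation, since with densities pooled over genes the ratios were 3.601 and 4.22 for the first 100 nt and 3.38 and 3.65 for the last. At an FDR below 0.05 the last 100 nt had 2.96 in DoHH-2 and 1.84 in GM01953.

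At the 5′ end the excess was broad. Bases 1 to 10, which hold the U1 snRNP site, had a ratio of 1.30 (1.19 to 1.42) in DoHH-2, and the lowest count of the first 100 nt there was 13, at base 4. The ratio was 2.59 (2.43 to 2.76) at bases 11 to 20 and 2.25 (2.10 to 2.41) at bases 21 to 30. It was still 1.63 (1.58 to 1.69) at bases 51 to 100. In GM01953 the first 10 bases together had a higher ratio, of 2.29 (1.77 to 2.90). Single bases among them were low there too, with 0 counts at base 3 and 2 at base 4. About 3.0 counts were expected at each of these bases, and their intervals include 1. In GM01953 the ratio was 2.67 (2.12 to 3.33) at bases 11 to 20, 3.36 (2.73 to 4.08) at bases 21 to 30 and 1.85 (1.64 to 2.08) at bases 51 to 100. U made up 31.3% of the bases at 11 to 20, close to the 30.7% of all intron bases. When each base was weighted by how often its 5-nt word occurred at the same intron positions, the ratio for the first 100 nt was 1.85 in DoHH-2 and 2.18 in GM01953, as large as without the weights.

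At the 3′ end a single base stood out. The last base of the intron, the G of the AG at the 3′ splice site, held 1777 counts against 35.5 expected in DoHH-2 and 179 against 2.68 in GM01953. The base before it held 7 and 0 counts. A cDNA counted at the last intron base starts at the first base of the exon, so these cDNAs begin exactly at the exon boundary. Without that base the ratio for the last 100 nt was 1.35 (1.31 to 1.39) in DoHH-2 and 1.44 (1.30 to 1.59) in GM01953. Further inside, bases 11 to 20 before the 3′ splice site had a ratio of 2.39 (2.23 to 2.56) in DoHH-2 and 2.41 (1.87 to 3.07) in GM01953. These bases fall in the pyrimidine tract, and U made up 50.8% of them. Weighted by 5-nt words, their ratio was 1.31 (1.23 to 1.40) in DoHH-2 and 1.46 (1.13 to 1.86) in GM01953. From 51 to 100 nt before the splice site the ratio was 1.08 (1.03 to 1.12) and 1.02 (0.859 to 1.20).

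The counts at the last intron base came from many transcripts. For this, canonical introns of every length were included, and also last bases that lie in an exon of another transcript. These counts thus go beyond the intron positions defined above. The last base then held 4429 counts at 2849 introns of 2050 genes in DoHH-2, and 2261 of these introns had a single count. In GM01953 it held 382 counts at 210 introns of 206 genes. The first base of the downstream exon held 5539 counts in DoHH-2 and 425 in GM01953, whereas the intron base before the last held 37 and 5. The introns with the highest counts in DoHH-2 are named here after their values were seen. Intron 1 of RPL19 had 36 counts at its last base, intron 5 of TPT1 had 30, intron 1 of RPS24 had 25 and intron 1 of RPL10A had 24. The base in RPS24 was an intron position by the rule used here. Those in RPL19, TPT1 and RPL10A were not, so their counts are not part of the intron counts above. RPL19, RPS24 and RPL10A encode ribosomal proteins, and TPT1 encodes a growth-related, translationally controlled protein. The highest in GM01953 was intron 5 of NEDD4L, a ubiquitin ligase gene, with 13 counts.

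First introns held fewer counts than an even spread would give. In genes with at least 2 introns, the count in the introns of the canonical transcript was shared out over the eligible bases of all those introns. Only positions in exactly 1 canonical intron were used. Over all genes they held 89.0% of the intron counts in DoHH-2 and 86.8% in GM01953. First introns held 40897 counts against 50931 expected in DoHH-2, a ratio of 0.803 (0.795 to 0.811), and 3347 against 4288 in GM01953, a ratio of 0.781 (0.754 to 0.807). The ratio rose along the transcript. It was 0.848 and 0.872 for the second intron, 0.941 and 1.08 for the third, 1.06 and 1.11 for the fourth, and 1.15 and 1.13 from intron 5 onwards, for DoHH-2 and GM01953 in that order. The last intron had 1.21 (1.19 to 1.23) and 1.12 (1.06 to 1.19).

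Intron length moved with these ratios. First introns had a median length of 4383 nt and later introns 1624 nt. Introns under 1 kb had a ratio of 1.33 (1.32 to 1.35) in DoHH-2 and 1.38 (1.31 to 1.46) in GM01953, and those of 10 to 100 kb had 0.830 (0.824 to 0.836) and 0.785 (0.765 to 0.805). The last intron base, which weighs more in a short intron, was kept here, and its part in the length ratios was not tested. Without the 10 nt next to exons the ratio of first introns was 0.798 in DoHH-2 and 0.776 in GM01953. Introns of 100 kb or more lay at 0.997 (0.980 to 1.01) and 0.990 (0.939 to 1.04), whose intervals include 1. When first introns were set only against other introns of 1 to 10 kb in the same gene, the ratio was 0.967 (0.948 to 0.985) in DoHH-2 and 0.985 (0.918 to 1.06) in GM01953. Among introns of 10 to 100 kb it was 0.842 (0.827 to 0.856) and 0.815 (0.766 to 0.865). The ratio of first introns was thus below 1 in both lines among introns of 10 to 100 kb, only slightly below 1 in DoHH-2 among those of 1 to 10 kb, and not distinguishable from 1 there in GM01953. At positions with an FDR below 0.05 the ratio over all first introns was 0.941 in DoHH-2 and 0.735 in GM01953.

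Most genes held few intron counts. Of 18046 protein-coding genes with eligible intron bases, 11167 had at least 1 intron count in DoHH-2 and 4631 in GM01953, and 3378 and 76 had at least 20. The 10 genes with the most counts held 2.95% (2.88% to 3.01%) of the intron counts in DoHH-2 and 5.61% (5.30% to 5.94%) in GM01953. At positions whose next 31 nt are unique the shares were 2.59% and 2.61%, so the higher share in GM01953 was not kept there. With each position counted once it was 2.48% and 1.84%, and at an FDR below 0.05 it was 10.4% and 8.001%. The top 1000 genes held 44.9% and 57.4%. ARMH4, C7orf50 and RABGAP1L were among the 10 in both lines. In pooled libraries of this kind a higher count cannot be told apart from more pre-mRNA of the gene, and fewer cells that transcribe it cannot be told apart from less RNA per cell.

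ARMH4 led in both lines through a tRNA gene. DoHH-2 had 1533 intron counts in this gene and GM01953 had 362, and 1480 and 362 of these lay inside TRK-CTT1-1 (chr14:58239895-58239967, minus strand), a lysine tRNA gene. The positions at nucleotides 34, 35 and 36 of the tRNA, its anticodon, had 543, 543 and 261 counts in DoHH-2 and 106, 135 and 75 in GM01953. These were the highest 3 intron positions of DoHH-2 and among the highest 5 of GM01953. The exons of ARMH4 held 51 and 10 counts. Of its intron counts, 1532 of 1533 in DoHH-2 and all 362 in GM01953 lay in the gene span but in no intron of the canonical transcript. The 31 nt after the leading position occur 2 times in the genome, so the counts may stem from more than this copy.

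Counts inside tRNA genes were found at 20 RefSeq tRNA genes within introns. They held 0.903% (0.867% to 0.941%) of the intron counts in DoHH-2 and 3.08% (2.85% to 3.33%) in GM01953. Over both lines, 86.4% of these 2872 counts lay at nucleotides 32 to 38, the anticodon and its neighbours in the anticodon loop. That share was set mainly by TRK-CTT1-1, which held 1842 of the 2872 counts and 1808 of the 2480 at nucleotides 32 to 38. Of the 10 tRNA genes with at least 20 counts, 9 had their highest position there when the lines were summed. FBXO31, which encodes an F-box protein of a ubiquitin ligase, had 217 intron counts in DoHH-2, 189 of them in TRM-CAT6-1, and 75 in GM01953, all in that tRNA gene. The highest position of this methionine tRNA gene over both lines was nucleotide 34, with 107 counts in DoHH-2 and 28 in GM01953, although in GM01953 alone a position 8 nt upstream had 29. AGBL5, a tubulin deglutamylase gene, had 200 and 86 intron counts, of which 185 and 84 lay in TRA-AGC8-1 and TRY-GTA2-1. In the alanine tRNA the peak was at nucleotide 37, with 61 and 42 counts. The exception was the tyrosine tRNA TRY-GTA2-1, whose gene is 89 nt long and whose peak lay at nucleotide 53, with 97 and 34 counts. KCTD2 had 139 and 44 intron counts, of which 131 and 44 lay in TRR-TCG3-1 and TRR-CCT1-1, arginine tRNA genes. Most counts of these host genes lay in the gene span but in no intron of the canonical transcript. In DoHH-2 this held for 190 of 217 in FBXO31, 193 of 200 in AGBL5 and 134 of 139 in KCTD2.

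**Figure D1:**
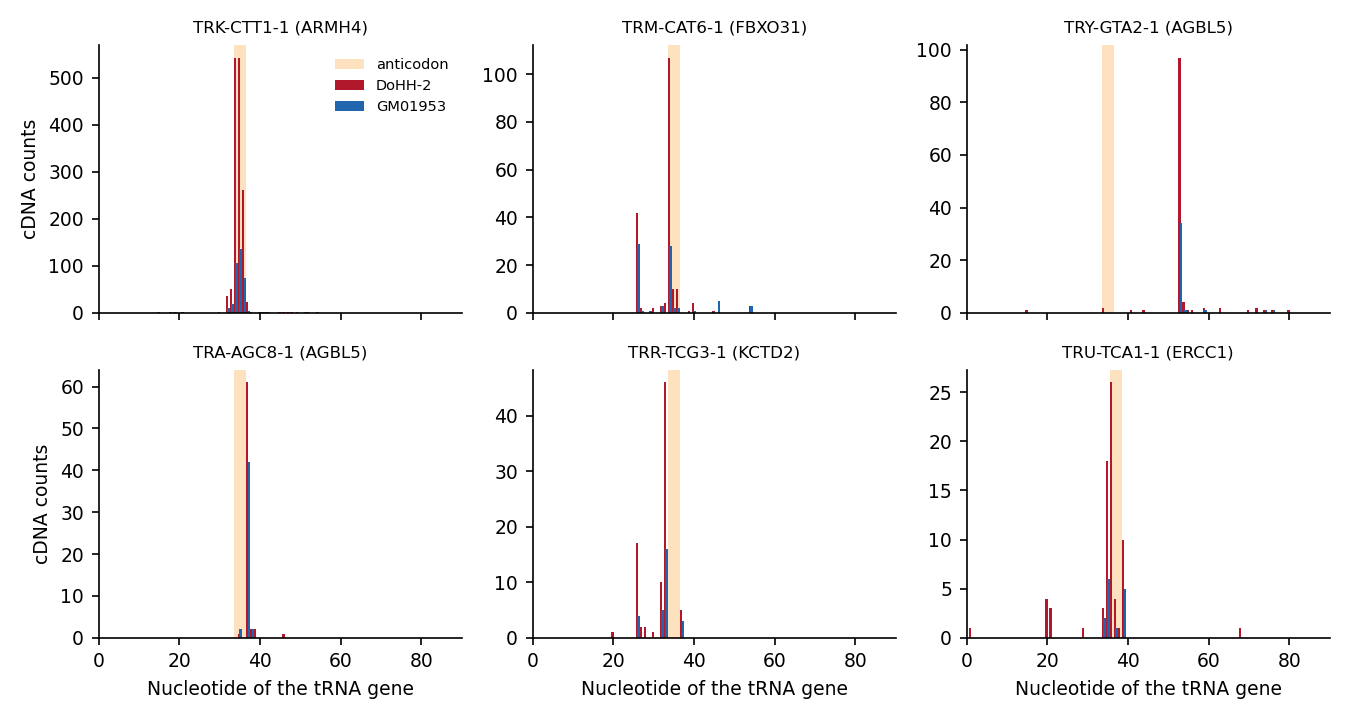
cDNA counts at each nucleotide of the 6 tRNA genes with the most counts inside introns of protein-coding genes, with the host gene in parentheses, for DoHH-2 (red) and GM01953 (blue). The shaded band marks the anticodon. In 5 of the 6 genes the highest position lies within or next to the anticodon, and in TRY-GTA2-1 it lies at nucleotide 53.

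Runs of A set GTF2F1 apart, mainly in GM01953. This gene, which encodes a subunit of the general transcription factor TFIIF, had 232 intron counts at 5 positions in GM01953, and all 232 preceded a run of A. Its 2 leading positions, with 83 and 79 counts, were among the highest 5 of that line. In DoHH-2 the gene had 84 intron counts, of which 73 preceded a run of A. The 31 nt after the leading position of GTF2F1 occur 77141 times in the genome, so these counts cannot be tied to a single locus.

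HFM1 and ANKRD30BL held their counts in copies of ribosomal RNA. HFM1, a meiotic helicase gene, had 571 intron counts in DoHH-2, all in intron 4, and a single exon count. Of these, 540 lay at positions whose next 31 nt match the 45S pre-rRNA gene RNA45SN1 with 3 or fewer mismatches on the same strand, within 341 nt (chr1:91387253-91387593). In GM01953 all 32 intron counts of HFM1 did so. ANKRD30BL had the fourth highest single intron position of DoHH-2, with 108 counts, and all of its 343 intron counts there matched rRNA by the same measure. In GM01953 that position had 5 counts. Among the 498 positions with at least 10 counts in DoHH-2, 19 matched rRNA, 1 matched the mitochondrial genome and 26 lay in tRNA genes.

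The other leading genes of DoHH-2 had counts spread over many positions. BCL2, the anti-apoptotic gene, had 897 counts at 781 positions with a maximum of 10, and 2392 exon counts. All 897 lay in its second intron of 189322 nt, the only intron of BCL2 with eligible bases, so this placement follows from the rule. GM01953 had 35 intron counts at 16 positions there. TERT, which encodes the catalytic subunit of telomerase, had 861 counts at 737 positions over all 15 introns. Its density of 23915 counts per Mb was far above the 201 per Mb over all genes. Intron 11 of TERT held 355 of these counts (41.2%) and intron 2 held 192 (22.3%), and the exons held 269. In GM01953 TERT had 12 intron counts. RUBCNL, an autophagy gene, had 776 counts at 657 positions over all 14 introns in DoHH-2 and 2619 exon counts, and 9 intron counts in GM01953.

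C7orf50 had 643 intron counts in DoHH-2, 602 of them in intron 2, of 117113 nt. In GM01953 it had 44, of which 40 lay there. RABGAP1L, a Rab GTPase-activating protein gene, had 608 and 75, in 23 and 7 of its 25 introns. RFC3, a subunit of the replication clamp loader, had 495 counts at 442 positions in DoHH-2 and 6 in GM01953. GBE1, the glycogen branching enzyme, had 477 and 29, and GSE1 had 465 and 11. In DoHH-2, 310 of the 495 counts of RFC3 and 251 of the 465 of GSE1 lay in the gene span but in no intron of the canonical transcript. For these 8 genes, BCL2 to GSE1 without HFM1, the highest position held between 1.05% and 2.58% of the intron counts of the gene in DoHH-2.

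The remaining leading genes of GM01953 differed in how their counts were spread. PAG1, an adaptor of the kinase Csk, had 59 intron counts in GM01953, of which 53 lay at a single position, and 10 counts at 10 positions in DoHH-2. PIEZO2, a mechanosensitive channel gene, had 49 counts at 18 positions, spread over 11 of its 55 introns, and 1 count in DoHH-2. TBC1D22A had 47 counts in GM01953, of which 17 lay at the highest position, and 250 at 221 positions in DoHH-2. C7orf50 shared its place at 44 counts with KCTD2 and LSAMP and was taken by alphabetical order.

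By density the leading genes of DoHH-2 had few eligible intron bases, since bases in any annotated exon were left out. RPS16 had 20 counts over 0.139 kb of eligible bases, all at the last base of intron 1, its only intron with eligible bases. ATF5, a transcription factor gene, had 160 counts at 118 positions over 2.34 kb. REPIN1 had 64 counts over 1.21 kb, RPS2 had 20 over 0.396 kb and MAT2A, which encodes the enzyme that makes S-adenosylmethionine, had 75 over 1.63 kb. In GM01953, RPS16 had 2 intron counts and the other 4 had 0, a level that allows up to 3 counts per gene. The 5 densest genes of GM01953 were GTF2F1, AGBL5, KCTD2, FBXO31 and ARMH4, all described above with their tRNA genes or runs of A. The next 31 nt occur once in the genome at the highest positions of RPS16 and RPS2.

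Genes of B-cell identity had intron counts above the overall density. Of 27 such genes, 19 (DoHH-2) and 15 (GM01953) had intron counts. Over all genes, 11167 and 4631 of 18046 had them, which is the background for this list and those below. The summed density of the B-cell list was 753 and 83.1 counts per Mb, against 201 and 16.5 over all genes. The eIF4 family, splicing regulators and cytosolic ribosomal proteins, described below, lay above it too, at 755, 2828 and 1739 per Mb in DoHH-2. In GM01953 they had 45.5, 164 and 75.1, so a raised density was not particular to B-cell genes. Introns made up 23.01% and 15.3% of the gene counts of the B-cell list, against 17.2% and 17.8% over all genes. BACH2 had 331 intron counts in DoHH-2 and 9 in GM01953, EBF1 had 212 and 12, and PAX5 had 204 and 15. All 3 encode transcription factors of the B-cell lineage. The list was chosen with results of these data known, so its level is a description.

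The genes of the eIF4 family list, some of whose proteins bind the cap or unwind the 5′ UTR, had 448 intron counts in DoHH-2 and 27 in GM01953, from 12 and 7 of 14 genes. EIF4G3 had 142 and 2, EIF4G1, the main scaffold of the cap-binding complex, had 57 and 14, and EIF4E, the cap-binding subunit, had 50 and 1. Introns held 7.08% of the gene counts in DoHH-2 and 6.21% in GM01953.

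Genes of splicing regulators had a density of 2828 counts per Mb in DoHH-2 and 164 in GM01953, with counts in 28 and 18 of 32 genes. HNRNPC, whose protein binds U-rich stretches of pre-mRNA, had 142 intron counts in DoHH-2 and 6 in GM01953. HNRNPA2B1 had 140 and 9, and SRSF11 had 94 and 11. Because their exons held many more counts, introns made up only 5.59% and 5.03% of the gene counts.

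Cytosolic ribosomal protein genes lay lower still by that share, at 2.65% in DoHH-2 and 1.39% in GM01953. Of 89 genes, 74 and 15 had intron counts, 1134 and 49 in total. The share of genes with counts was above that of all genes in DoHH-2 and below it in GM01953. RPS6 had 49 and 13 counts, RPL37A had 49 and 0 and RPL35 had 46 and 4. The 13 counts of RPS6 in GM01953 lay at a single position of intron 4. In contrast, 12 very long genes had 81.8% and 76.7% of their counts in introns, at a low density of 39.1 and 3.41 counts per Mb. DPYD, a pyrimidine-degrading enzyme gene, had 365 counts in DoHH-2 and 5 in GM01953, IMMP2L had 144 and 14, and WWOX had 135 and 19.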

How the data were processed

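The deposited data were 1 table per cell line, with the cDNA counts and the FDR (a q-value) of each cross-link position. Per the study's methods, the authors removed PCR duplicates with BBMap, demultiplexed with Je, used HISAT2 to map the reads to GRCh38, and called positions with iCount after pooling the replicates. Versions are not given in the sources used here. Depth was 2033156 (DoHH-2) and 167197 (GM01953) counts. Positions were taken as 0-based and 1 was added. The sources do not state this. It was inferred from the U content around positions, which peaks at the same distance on both strands under this reading, and the last-base and anticodon positions depend on it.

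Positions were assigned with GENCODE release 44. Introns were numbered on the Ensembl canonical transcript, and tRNA genes came from RefSeq. Expected counts were shared out over eligible bases within each gene or intron. Shares have Wilson intervals and ratios exact Poisson intervals. No test between the lines was possible. Named genes were the 10 with the most intron counts per line, the 5 densest with at least 20 counts, those of the 5 highest positions, and the 3 highest of each list. A gene among the 10 of GM01953 is not reported here. Members and lists were chosen with earlier results of these data known. The scripts (Python 3.11.15, pandas 2.3.3, scipy 1.17.1, pysam 0.24.0) were tested on simulated data.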

Additional observations from a re-analysis of the deposited data

How the results depend on the processing

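No ratio crossed 1, and 53 of 89 recomputed values moved beyond the counting interval. The order of the lines turned for the intron share, the last 100 nt, the sense to antisense ratio and the 10-gene share at an FDR below 0.05, for first introns and the 10-gene share with each position counted once, for first introns with pooled densities, and for the intron share without tRNA genes (12.19% and 12.23%). With only positions at an FDR below 0.05, the intron share was 3.95% in DoHH-2 and 14.8% in GM01953, the first-intron ratio 0.941 and 0.735, the ratio of the last 100 nt 2.96 and 1.84, the sense to antisense ratio 41.7 and 43.1, and the 10-gene share 10.4% and 8.001%. The ratio of the first 100 nt was then 1.76 in DoHH-2. The sense to antisense ratio at this FDR cannot measure strand signal, since the FDR is computed within genes and rarely passes antisense positions. With each position counted once, these were 18.4% and 13.4% for the intron share, 0.788 and 0.822 for first introns, 8.30 and 4.43 for sense to antisense, 2.48% and 1.84% for the 10-gene share, and 1.70 for the last 100 nt in DoHH-2. When only exons of protein-coding transcripts were masked, the intron share was 14.6% and 14.4% and the 10-gene share 2.63% and 4.90%. In DoHH-2 first introns then had 0.792, the last 100 nt 1.70 and sense to antisense 6.93. Without the 10 nt next to exons, the share was 11.9% and 11.8%, the last 100 nt had 1.31 and 1.39, and the first 100 nt 1.94 in DoHH-2. Without the 10 leading genes, the share was 11.9% and 11.6% and sense to antisense 6.98 and 3.79. With densities pooled over genes, the first 100 nt had 3.601 and 4.22, the last 100 nt 3.38 and 3.65, and first introns 0.815 in GM01953. Counted in every spanning gene, the 10-gene share was 3.34% in DoHH-2. Thinning DoHH-2 to the total of GM01953 left 19659 intron positions. The following were chosen after seeing the data. With unique 31-nt sequences only, the share was 12.1% and 11.99% and the 10-gene share 2.59% and 2.61%. Without tRNA genes the 10-gene share was 2.53% and 3.79%. The last 100 nt had 1.35 and 1.44 without the last base and 1.52 and 1.79 with 5-nt word weights. The cause of these shifts was not tested beyond what each setting removes. Leaving out repeats was not run, since the reference genome does not mark them. Replicates could not be left out in turn. No paired analysis was possible because the deposited tables pool the replicates of each line. The depth of GM01953 limits the precision of its ratios.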
